A study of Mus musculus with 220 samples.

Results

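The high endothelial cells (HEC) of inflamed mouse lymph nodes were compared with each other by how much Glycam1 they carried. Their transcripts had been sequenced cell by cell, and the cells were divided at the median Glycam1 value of 6350 FPKM, the fragments of a transcript scaled by its length and by the mapped fragments of the cell. The 32 cells above it are called high-Glycam1 cells here, and the 32 cells at or below it low-Glycam1 cells. They come from 65 of the 220 deposited cells, with cells 43 and 60 averaged as 1 cell because their values correlated at a Pearson r of 0.988, against 0.701 for the next closest pair. All cells were from C57BL/6 mice. The inflamed HEC were taken 3 days after 4% oxazolone, a contact sensitiser, was put on the skin. They are set beside 44 dedifferentiated HEC, taken 7 days after an intraperitoneal injection of LTBR-Ig, which is a soluble decoy for the lymphotoxin-beta receptor, and beside 79 HEC and 32 other blood endothelial cells (BEC) of untreated mice, called homeostatic. Each library held 1 cell, and the labels name no animal, so the cells of a condition count as 1 sample and no p-value or standard error is given. Animal, capture chip and sort cannot be told apart from the Glycam1 level within a condition.

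High endothelial cells line the postcapillary venules of lymph nodes, where circulating lymphocytes cross from blood into tissue. Glycam1 is a secreted mucin that, once fucosylated, sialylated and sulfated by Golgi enzymes, carries sugars recognised by L-selectin on lymphocytes, and the chemokine CCL21 then arrests the rolling cells. The mature state of these venules depends on lymphotoxin-beta receptor signalling, and in immunised or inflamed nodes the vessels grow and lose part of their specialised gene expression.

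The cells were chosen by their Glycam1 values, so these are given only as a description. High-Glycam1 cells held 6479, 25587 and 115345 FPKM (lowest, median and highest), against 207, 1221 and 6220 FPKM in low-Glycam1 cells. The cells nearest the dividing value were at 6479 and 6649 FPKM above it and at 6220 and 5234 FPKM below it, with no gap between them. BEC held 32.8 to 594 FPKM, and 6 of the 32 low-Glycam1 cells lay in that range. The split fell at 59091 FPKM in homeostatic HEC and at 7027 FPKM in dedifferentiated HEC, and the homeostatic value lay above the median of the high-Glycam1 inflamed cells.

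Ccl21a stood first among the other genes, and the sequences before its annotated start and before those of Gcnt1, Ubd and Ly6c1 are shown because these genes carried the results that follow. Each is the 250 bases upstream of the RefSeq start in GRCm38.p6, written 5′ to 3′ along the gene's strand. The window of Ccl21a is chr4:42773992-42774241 (minus strand), Gcnt1 chr19:17372845-17373094 (minus strand, the outermost of 3 annotated starts), Ubd chr17:37193642-37193891 (plus strand) and Ly6c1 chr15:75048838-75049087 (minus strand, the outermost of 2). Capitals mark matches on either strand to CAGGAA (an ETS-type core), TATAAA, or the kappaB consensus. Ccl21a held CAGGAA, Gcnt1 held TATAAA on both strands and CAGGAA on the opposite strand, Ubd held a kappaB match ending 6 bases before the start, and Ly6c1 held TATAAA.
Ccl21a: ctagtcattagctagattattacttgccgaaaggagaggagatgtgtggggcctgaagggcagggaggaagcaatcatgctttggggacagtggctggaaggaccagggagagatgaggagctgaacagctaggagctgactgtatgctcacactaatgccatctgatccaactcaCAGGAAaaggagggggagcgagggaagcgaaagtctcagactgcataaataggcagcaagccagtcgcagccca
Gcnt1: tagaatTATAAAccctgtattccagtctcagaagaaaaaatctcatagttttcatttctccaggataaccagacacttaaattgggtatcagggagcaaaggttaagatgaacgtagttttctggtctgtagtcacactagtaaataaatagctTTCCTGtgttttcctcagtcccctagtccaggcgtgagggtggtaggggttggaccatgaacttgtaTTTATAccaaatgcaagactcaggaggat
Ubd: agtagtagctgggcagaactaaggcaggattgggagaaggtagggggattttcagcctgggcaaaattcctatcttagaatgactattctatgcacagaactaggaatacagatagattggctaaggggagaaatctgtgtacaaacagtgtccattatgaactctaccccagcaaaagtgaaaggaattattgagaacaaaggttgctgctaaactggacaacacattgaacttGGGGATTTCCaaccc
Ly6c1: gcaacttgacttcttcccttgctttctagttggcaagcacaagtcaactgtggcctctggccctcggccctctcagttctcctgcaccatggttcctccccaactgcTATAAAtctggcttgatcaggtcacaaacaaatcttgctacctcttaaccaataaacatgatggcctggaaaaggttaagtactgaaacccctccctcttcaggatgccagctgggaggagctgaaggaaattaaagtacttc
Of the 32851 upstream windows of this length in the RefSeq table, 25.7% held CAGGAA, 12.4% held TATAAA and 7.25% held the kappaB consensus. No 2 of the matches overlapped. A match describes the letters and is not evidence of binding.

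Values are compared on the log2(FPKM + 1) scale as the mean of high-Glycam1 cells minus that of low-Glycam1 cells, a scale that understates differences of weakly expressed genes. The 6933 genes compared reached an FPKM of 1 in at least 25% of the high-Glycam1 or of the low-Glycam1 cells. For a gene that passed through 1 set alone, the direction follows in part from this filter. A difference of 1 or more was counted as higher or lower. By that rule 326 genes (4.7%) were higher and 548 (7.9%) lower in high-Glycam1 cells, 12.6% in all, with a median over all genes of -0.11. The lowest 1% of the differences lay below -1.78 and the highest 1% above 1.70. For 15 genes higher and 12 lower, the difference reached 1 SD between cells. Without the 8 cells that held 3 or more cell cycle genes, described below, the counts were 464 higher and 480 lower.

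Sequencing depth and the number of genes seen were close in both sets. High-Glycam1 cells had 3786 genes at an FPKM of 1 or more as a median, against 4090 in low-Glycam1 cells, and about 2083458 fragments against 2111730, as estimated from the steps between low values. Glycam1 itself took 3.82% of the summed FPKM in the median high-Glycam1 cell and 0.198% in the median low-Glycam1 cell. Ccl21a took 5.96% and 0.283%. FPKM values are relative, and with Glycam1 and Ccl21a removed from the sum of each cell the counts were 372 higher and 494 lower. Blood endothelial markers were present in both: 9 of 10 passed the filter, none of them reached a difference of 1, and their median was -0.36. Markers of pericytes, fibroblastic reticular cells, B lymphocytes, myeloid cells and erythroid cells had no member that passed. At an FPKM of 10, 2 or more markers of 1 lymphocyte, leukocyte or myeloid list were present in 6 high-Glycam1 cells and 3 low-Glycam1 cells. Their part in the results was not tested beyond the comparison without those cells given in the closing section.

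The lymphocyte-attracting chemokine Ccl21a was higher in cells with more Glycam1. Ccl21a, which encodes the CCL21 that activates integrins on rolling lymphocytes, was at 4143, 37841 and 141409 FPKM (lowest, median and highest) in high-Glycam1 cells, against 87.5, 1599 and 60381 FPKM in low-Glycam1 cells. On the log2 scale this was 15.29 ± 1.02 against 11.05 ± 2.56 (SD over 32 cells each), a difference of 4.24. The sets overlapped, but every high-Glycam1 cell lay above the median of the low-Glycam1 cells and 1 of the 32 low-Glycam1 cells lay above the median of the high ones. Spearman's rho between Ccl21a and Glycam1 over the 64 cells was 0.78, a description of cells that share a library preparation and condition. Low-Glycam1 cells varied more: 31 of 32 high-Glycam1 cells held Ccl21a at 10000 FPKM or more, against 8 of 32 low-Glycam1 cells (25%, exact Clopper-Pearson 95% interval 11.5 to 43.4%, counting error only). Those 8 cells held Glycam1 at 657 to 4031 FPKM, so a cell could carry much Ccl21a without much Glycam1. The highest BEC held 123 FPKM of Ccl21a, a level that 32 of 32 high-Glycam1 and 31 of 32 low-Glycam1 cells passed, so nearly all low-Glycam1 cells still exceeded BEC.

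**Figure D1:**
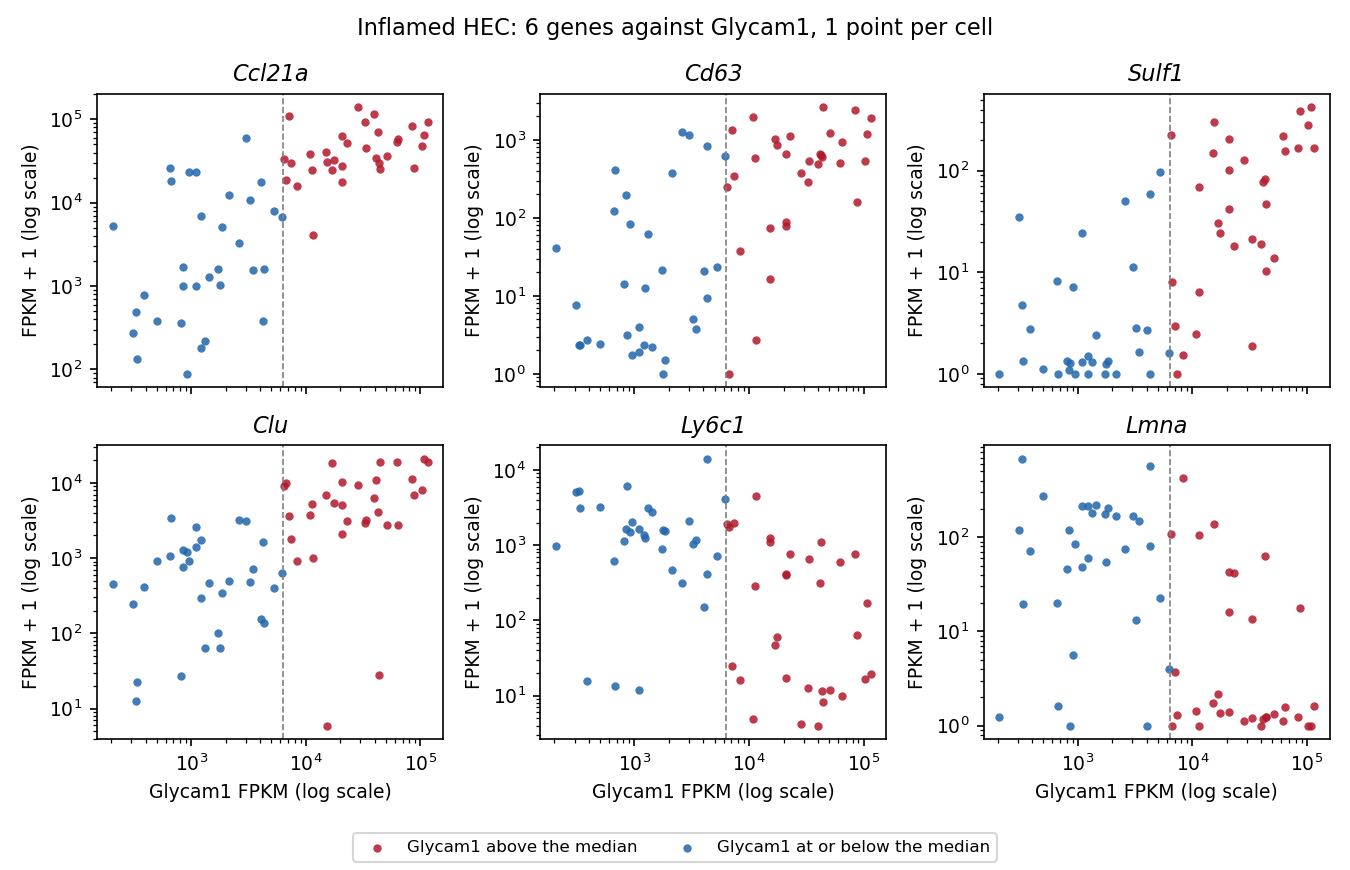
FPKM + 1 of 6 genes (vertical, log scale) against Glycam1 FPKM (horizontal, log scale) in each inflamed HEC; red points are high-Glycam1 cells, blue points low-Glycam1 cells, and the dashed line is the median of 6350 FPKM. Ccl21a spans 4143 to 141409 FPKM right of the line and 87.5 to 60381 FPKM left of it, while Ly6c1 and Lmna have most of their low values right of it.

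The other chemokine genes were read against the same background. Of 19 chemokine and chemokine receptor genes listed, 10 passed the filter, 4 were higher, none was lower, and their median was 0.78 beside -0.11 for all genes. The share over all genes compared was 4.7% higher. Ccl21b, a near copy of Ccl21a whose reads the authors' quantification may have shared out uncertainly, differed by 2.25, and its median was 7.46 FPKM in high-Glycam1 cells and 0.865 FPKM in low-Glycam1 cells. Cxcl9, an interferon-induced ligand of CXCR3 on activated T cells, differed by 1.49, with 26 of 32 high-Glycam1 cells at an FPKM of 1 or more against 18 of 32. The scavenging receptor gene Ackr2 differed by 1.12 but was seen in only 9 and 4 cells, and so passed through the high-Glycam1 cells alone. Cxcl12, a chemokine that BEC express at a median of 476 FPKM, differed by -0.96 and so was not counted as lower.

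The enzymes that build the L-selectin sugars were split. Of 26 listed carriers and enzymes, 22 passed, 5 were higher and 2 lower, and the median was 0.33. The shares over all genes compared were 4.7% higher and 7.9% lower. Gcnt1, the core 2 branching enzyme, was at 0, 66.8 and 257 FPKM in high-Glycam1 cells, against 0, 5.19 and 325 FPKM in low-Glycam1 cells, a difference of 2.35. Fut7, the fucosyltransferase that completes the sialyl Lewis x structure, was at 1.12, 231 and 1152 FPKM, against 0, 30.3 and 821 FPKM in low-Glycam1 cells, a difference of 2.21. Chst4, the sulfotransferase largely restricted to high endothelium, was at 14.4, 506 and 1286 FPKM, against 0.2, 144 and 1254 FPKM in low-Glycam1 cells, a difference of 2.07. The highest values of both sets were of similar size for all 3 enzymes, and more low-Glycam1 cells had little or none: Gcnt1 reached an FPKM of 1 in 31 of 32 high-Glycam1 cells and in 18 of 32 low-Glycam1 cells. Cd300lg (1.28), a mucin-like receptor that carries L-selectin ligand, and St3gal4 (1.26), a sialyltransferase, were also higher. Podxl (-1.17), another sialomucin, and B4galt1 (-1.07), a galactosyltransferase, were lower. Chst2, the partner sulfotransferase of Chst4, differed by 0.53, the carriers Cd34 by -0.56 and Emcn by -0.02, so most of the pathway was not counted in either direction. When the 21 highest and 21 lowest cells by Glycam1 were compared, the list's median was -0.118, with 5 of 21 members higher and 2 lower. That median lay 0.004 above the median of all genes in the same comparison.

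Of the 8 high endothelial markers, all passed, 4 were higher and none was lower, with a median of 1.46. Beside this, 4.7% of all genes compared were higher, and their median was -0.11. Of the 8, 1 passed through the high-Glycam1 cells alone, so its direction follows in part from the filter. The 4 higher markers were Ccl21a, Gcnt1, Fut7 and Chst4, already described above. Ackr1, Madcam1, Chst2 and Enpp2 were not counted in either direction. The 7 enzyme and venule markers apart from Ccl21a were counted per cell, and 5 or more of them reached an FPKM of 10 in 27 of 32 high-Glycam1 cells (84.4%, exact interval 67.2 to 94.7%) and 15 of 32 low-Glycam1 cells (46.9%, 29.1 to 65.3%). The same was true of 70 of 79 homeostatic HEC and of 0 of 32 BEC, which allows a share of up to 9.38% by the limit of 3 counts and 10.9% by the exact interval. Enpp2, the autotaxin gene that makes lysophosphatidic acid at the venule wall, was at 971 FPKM as a median in high-Glycam1 cells and 943 FPKM in low-Glycam1 cells, and its difference was -0.09. The venular chemokine-binding receptor Ackr1 was at 2101 and 911 FPKM, a difference of 0.85. BEC had medians of 259 FPKM for Enpp2 and 2.52 FPKM for Ackr1, both below those of low-Glycam1 cells.

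Of 16 listed genes of secreted and defence proteins, 13 passed, 7 were higher, none was lower, and the median was 1.03. Among all genes compared, 4.7% were higher and the median was -0.11. Clu, a secreted chaperone, was at 4.95, 5310 and 21045 FPKM in high-Glycam1 cells, against 11.8, 488 and 3371 FPKM in low-Glycam1 cells. No low-Glycam1 cell reached the median of the high ones, and the difference was 3.16. Clu was named by size and is no member of that list. Ly6i, a Ly6-family surface protein gene on chromosome 15 (74979534 to 74983430, minus strand, GENCODE M21, mm10), was at 0, 60.5 and 2106 FPKM against 0, 1.49 and 122 FPKM in low-Glycam1 cells, a difference of 3.74. The alpha-1-antitrypsin genes Serpina1e and Serpina1b, close copies whose reads may be exchanged, differed by 2.33 and 1.90. The protease inhibitor Spint2 (1.76), the bacterial-wall binding protein Pglyrp1 (1.63), Oit1 (1.48) and the antibacterial lectin Reg3g (1.03) made up the rest. Reg3g was seen in only 9 and 7 cells, and so passed through the high-Glycam1 cells alone.

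The other genes named for size had assorted roles. Cd63, a tetraspanin of endosomes and Weibel-Palade bodies that helps hold P-selectin at the surface, was at 0, 557 and 2639 FPKM in high-Glycam1 cells, against 0, 9.93 and 1250 FPKM in low-Glycam1 cells, a difference of 4.18. Of its gene relatives, Cd9 differed by 1.03 and Cd151 by -1.50. Sulf1, an enzyme that removes 6-O-sulfate groups from heparan sulfate, was at 0, 57.5 and 425 FPKM against 0, 0.42 and 96.2 FPKM in low-Glycam1 cells, a difference of 3.72. It reached an FPKM of 1 in 29 of 32 high-Glycam1 cells and 13 of 32 low-Glycam1 cells. Mustn1, a small nuclear protein gene known from muscle, was at 0.42, 578 and 3621 FPKM against 0.33, 34.8 and 1087 FPKM in low-Glycam1 cells, a difference of 3.87. Itih3, an inter-alpha-trypsin inhibitor heavy chain, lies 26.96 kb from Mustn1 on chromosome 14 and differed by 1.92. Cpq (3.03), a carboxypeptidase, Bpifb5 (2.97), Lpcat4 (2.57), a phospholipid acyltransferase, Tgfbi (2.45), an integrin-binding matrix protein, and Nxph1 (2.40), a neurexin ligand, completed the 12. Sulf1, Itih3, Cpq, Bpifb5 and Lpcat4 reached an FPKM of 1 in at least 50% of the high-Glycam1 cells alone. That share was required for naming, so their direction follows in part from it. In BEC the medians were 169 FPKM for Clu and 60.1 FPKM for Ccl21a, and 0 to 1.02 FPKM for the other 10 of these 12.

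**Figure D2:**
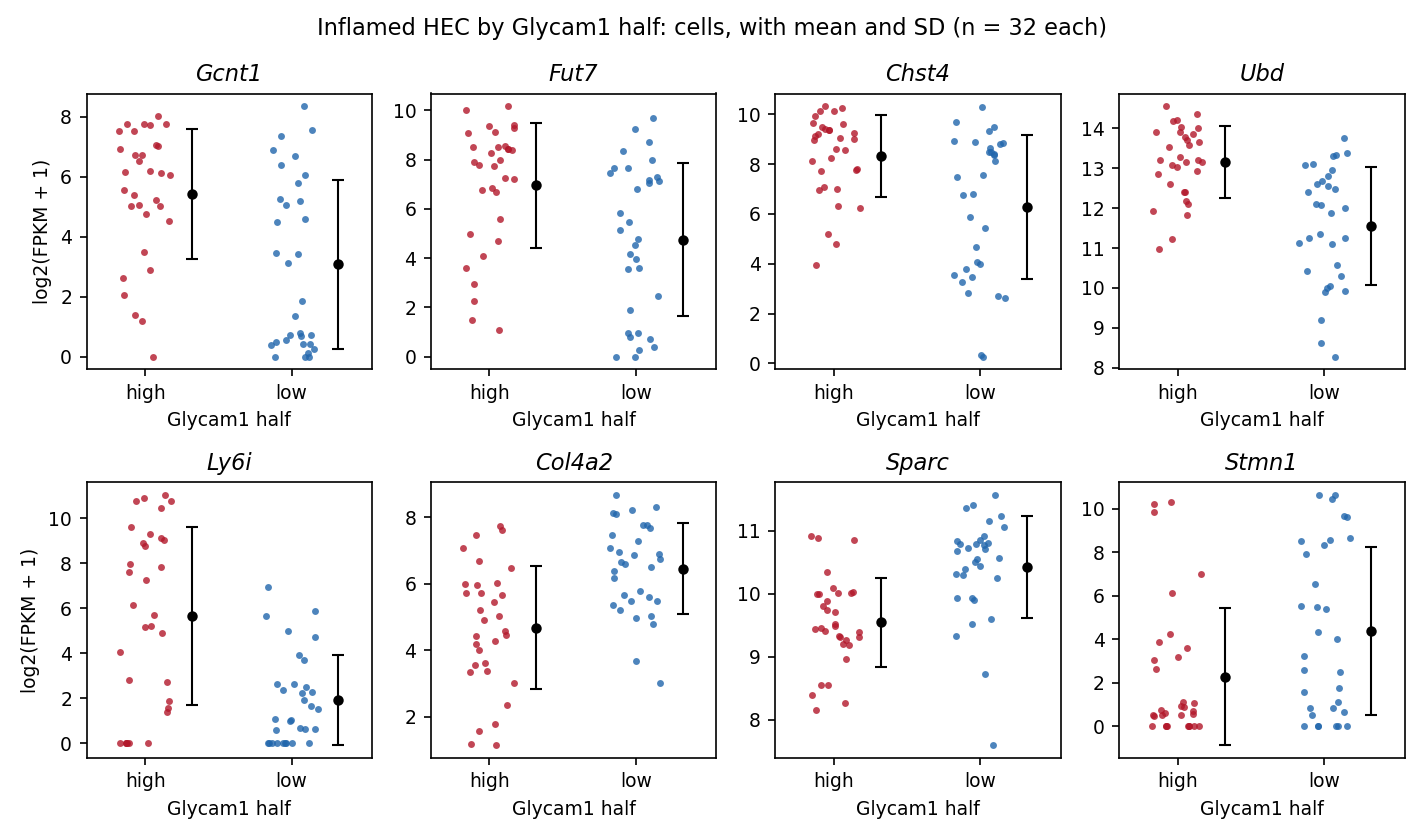
log2(FPKM + 1) of 8 genes in single inflamed HEC (points), high-Glycam1 cells on the left in red and low-Glycam1 cells on the right in blue, with the mean and SD over 32 cells beside each. The genes Gcnt1, Fut7, Chst4, Ubd and Ly6i are higher in the left column and Col4a2, Sparc and Stmn1 are lower, and every panel overlaps.

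Genes of lymphotoxin and NF-kappaB signalling differed little as a list. Of 19 listed, 17 passed, 2 were higher and 1 lower, and the median was 0.27. Ubd, an inflammation-induced ubiquitin-like gene that high endothelium expresses strongly, was at 1999, 9438 and 24186 FPKM in high-Glycam1 cells, against 309, 3939 and 13991 FPKM in low-Glycam1 cells, a difference of 1.59. Its rho with Glycam1 over the 64 cells was 0.62, after those of Ccl21a, Sulf1 (0.69), Clu (0.67), Cd63 (0.65), Ccl21b (0.64) and Mustn1 (0.64). Birc2, an inhibitor of apoptosis that restrains NF-kappaB-inducing kinase, differed by 1.43. Tnfrsf1b, a tumour necrosis factor receptor, differed by -1.09, but by 0.041 as a log2 ratio of arithmetic means. Inflammation-raised endothelial genes had 12 members passing of 18, 3 higher and 1 lower. These were the complement genes C1s1 (1.60) and Cfb (1.42), the oncostatin M receptor Osmr (1.07), and Tnfaip2 (-1.08). Tnfaip2 passed through the low-Glycam1 cells alone, so its direction follows in part from the filter.

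Interferon-response and antigen-presentation genes had counted members in both directions. Beside them, 4.7% of all genes compared were higher and 7.9% lower. Of 28 interferon genes, 26 passed, with a median of 0.41 beside -0.11 for all genes. Above 0 lay 21 of the 26, beside 2959 of all 6933 genes. The 3 higher were the guanylate-binding protein genes Gbp6 (1.37) and Gbp2 (1.27), and Iigp1 (1.07). Usp18 (-1.24), a brake on interferon signalling, was lower. In the homeostatic split the same list had a median of -0.43, with 0 higher and 6 lower of 25. Between the 21 highest and 21 lowest inflamed cells by Glycam1, the list's median was 0.093, with 2 higher and 3 lower of 26. That median lay 0.215 above the median of all genes in the same comparison. Of 21 antigen-presentation genes, 18 passed, and Tap2 (1.32) and Psme1 (1.02) were higher while Tap1 (-1.38) and Psmb9 (-1.26) were lower. The inflammatory selectin gene Sele was at a median of 0.23 FPKM in high-Glycam1 cells and 17.95 FPKM in low-Glycam1 cells, a difference of -1.74. Its relative Selp differed by -0.38, and the adhesion genes Icam1, Madcam1 and Vcam1 by 0.87, 0.54 and 0.48, none of them counted. Of 17 genes of lymphocyte entry, 16 passed, 2 were higher and 2 lower.

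Of 18 capillary and lipid-handling genes, 17 passed, 7 were lower and 1 was higher in high-Glycam1 cells. Over all genes compared, 7.9% were lower. The median of the 17 was -0.93, and 4 of them lay above 0. Of the 17, 2 passed through the low-Glycam1 cells alone, so their direction follows in part from the filter. Among the 15 that passed in both sets of cells, 5 were lower and the median was -0.92. Ly6c1, a Ly6-family surface protein gene of capillary endothelium, was at 3, 115 and 4529 FPKM in high-Glycam1 cells, against 11.1, 1431 and 14155 FPKM in low-Glycam1 cells, a difference of -3.20. Reads of Ly6c1 may be shared with its close copy Ly6c2. Ly6c1 lies 60.59 kb from Ly6i on chromosome 15, and these neighbours differed in opposite directions. The remaining 6 were Rgcc (-1.80), a regulator of the cell cycle, the fatty acid carrier Fabp4 (-1.71), the fatty acid receptor Cd36 (-1.53), the carbonic anhydrase Car4 (-1.52), Gpihbp1 (-1.47), which anchors lipoprotein lipase, and Rbp7 (-1.19). Apoe, the apolipoprotein E gene, was the member that was higher, at a median of 1041 FPKM against 169 FPKM in low-Glycam1 cells. BEC had medians of 5699 FPKM for Ly6c1 and 988 FPKM for Gpihbp1.

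Some of these genes, with the chemokine gene Cxcl12, were counted per cell. At least 2 of the 5 genes Gpihbp1, Rgcc, Rbp7, Cd36 and Cxcl12 reached an FPKM of 50 in 1 of 32 high-Glycam1 cells (3.13%, exact interval 0.0791 to 16.2%) and 8 of 32 low-Glycam1 cells (25%, 11.5 to 43.4%), against 32 of 32 BEC. By the same split, this held for 0 of 39 high and 5 of 40 low cells in homeostatic HEC. In dedifferentiated HEC it held for 0 of 22 and 4 of 22. The 9 inflamed cells held Ccl21a at 131 to 17525 FPKM and had 1 to 5 of the 7 high endothelial genes. When they were left out, 683 of 6904 genes were lower, against 548 of 6933 in all cells. Among list members, 4 of 15 were then lower and the median was -0.213, against 7 of 17 and -0.93 in all cells. As 4 of the 5 genes that picked these cells are list members, leaving the cells out lowers both values partly by construction. Whether these cells are capillary cells that entered the sort was not tested.

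Of 26 cell cycle genes, 19 passed, 9 were lower and none was higher in high-Glycam1 cells, with a median of -0.98. Among all genes compared, the lower share was 7.9%. Of the 19, 7 passed through the low-Glycam1 cells alone, so their direction follows in part from the filter. Over all 26 without the filter, 9 were lower, none was higher, and the median was -0.792. Stmn1, a microtubule-destabilising protein of dividing cells, was at 0, 0.62 and 1263 FPKM in high-Glycam1 cells, against 0, 11.8 and 1622 FPKM in low-Glycam1 cells, a difference of -2.11. Hmgb2 (-1.62), a chromatin protein, the replication helicase genes Mcm3 (-1.42), Mcm5 (-1.36) and Mcm6 (-1.07), Ube2c (-1.35), which drives anaphase, Pcna (-1.30), the kinase gene Cdk1 (-1.09) and the chromosomal passenger gene Birc5 (-1.04) followed. At least 3 of 8 genes, among them Mki67, Top2a and Cdk1, reached an FPKM of 10 in 0 of 32 high-Glycam1 cells, with the same limits of 9.38% and 10.9%, and in 8 of 32 low-Glycam1 cells (25%, exact interval 11.5 to 43.4%). In homeostatic HEC this held for 1 of 79 cells and in BEC for 0 of 32. The 8 cells held Glycam1 at 336 to 4272 FPKM, Ccl21a at 87.5 to 23650 FPKM and 3 to 6 of the 7 high endothelial genes. They had 3181 to 5792 genes at an FPKM of 1 or more, and 3 of them also had 2 or more capillary genes. Without these 8 cells, 480 of 6830 genes were lower. Among the cell cycle genes, 1 of 13 was lower and the median was -0.495. Leaving out cells picked by such genes lowers the count partly by construction.

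**Figure D3:**
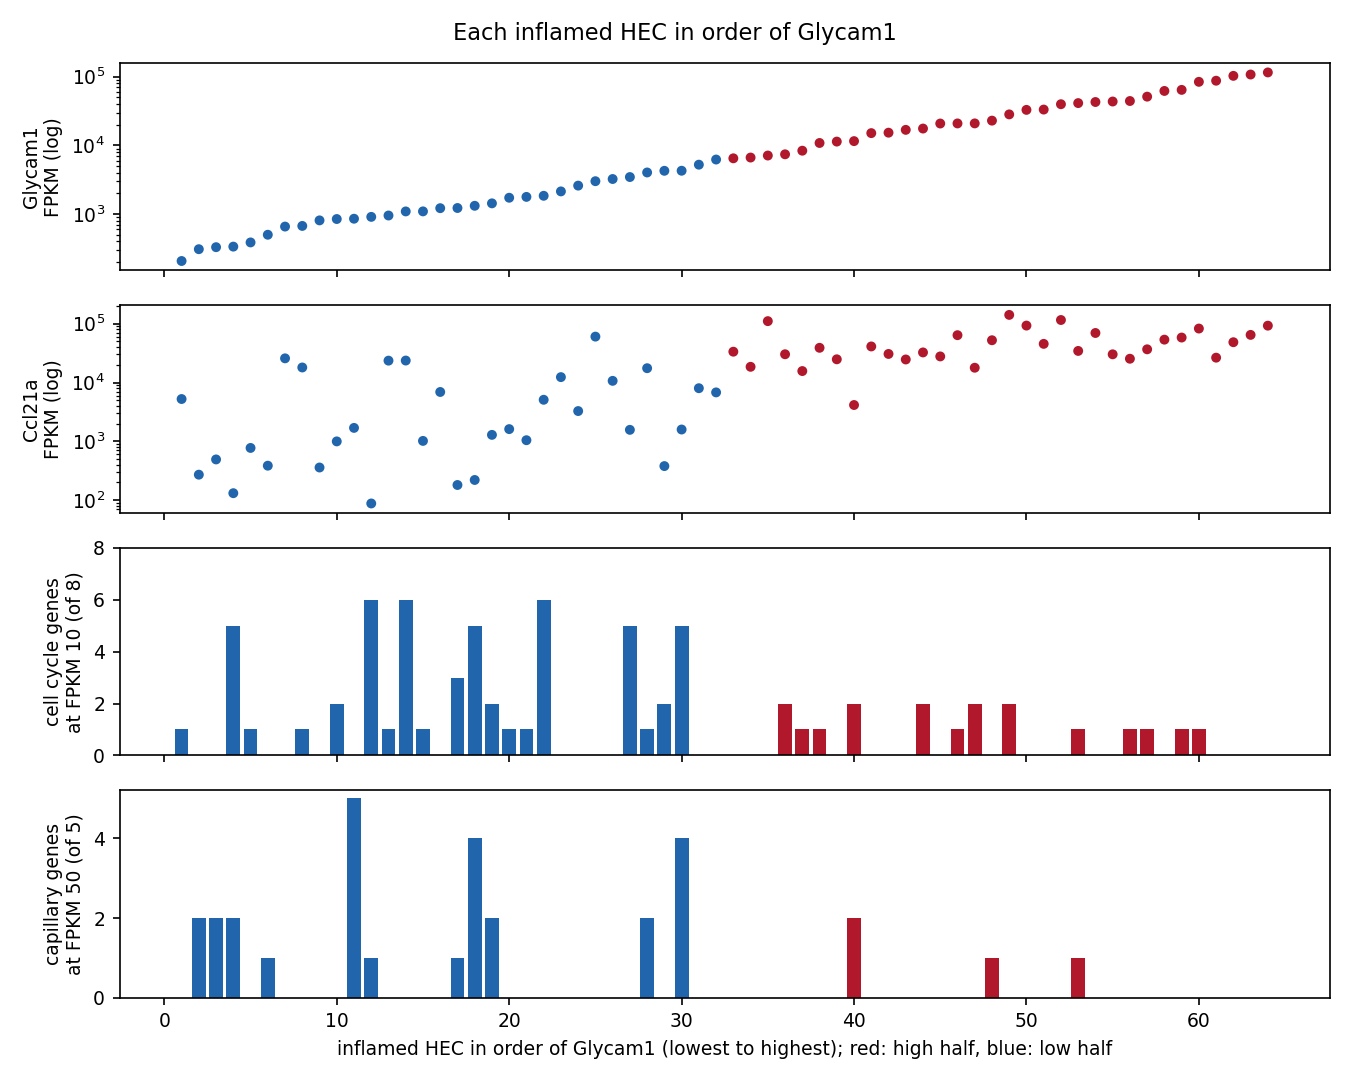
Each inflamed HEC in order of Glycam1 (horizontal, low to high; red high-Glycam1, blue low-Glycam1), with Glycam1 and Ccl21a FPKM (log scales), the number of 8 cell cycle genes at an FPKM of 10 or more, and the number of 5 capillary genes at an FPKM of 50 or more. Cells with 3 or more cell cycle genes number 0 among high-Glycam1 cells and 8 among low-Glycam1 cells, and cells with 2 or more capillary genes number 1 and 8.

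Of 16 basement membrane genes, 15 passed, 5 were lower and none was higher, with a median of -0.73. Over all genes compared, 7.9% were lower. Of the 15, 2 passed through the low-Glycam1 cells alone, so their direction follows in part from the filter. Among the 13 that passed in both sets of cells, 4 were lower and the median was -0.68. Col4a2, a chain of type IV collagen, was at 1.21, 25.9 and 214 FPKM in high-Glycam1 cells, against 7.06, 97.4 and 409 FPKM in low-Glycam1 cells, a difference of -1.77. Its partner chain Col4a1 differed by -1.26, the collagen-modulating Sparcl1 by -2.62, Nid1, which links laminin and collagen, by -1.45, and Lamb1, a laminin chain, by -1.42. Sparc, a collagen-binding matrix protein, was at 284, 710 and 1931 FPKM against 193, 1576 and 3048 FPKM in low-Glycam1 cells. It had the lowest rho with Glycam1, -0.61, although its difference of -0.88 was not counted, and 3 of 32 high-Glycam1 cells lay above the median of the low-Glycam1 cells. Without the cells with capillary genes, 6 of the 15 were lower, beside 683 of 6904 genes in that comparison and 548 of 6933 in all cells.

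Of 21 venous and endothelial transcription factor genes, 18 passed, 5 were lower and none was higher, beside 7.9% of all genes compared that were lower. Their median was -0.77, and 7 of the 18 lay above 0. For the 15 that passed in both sets of cells the median was -0.04, and 3 of them were lower. The 5 were Aplnr (-2.36), the apelin receptor, Sox7 (-1.79) and Sox18 (-1.09), endothelial transcription factors, Gata2 (-1.35) and Mef2c (-1.25). Aplnr reached an FPKM of 1 in 7 of 32 high-Glycam1 cells and 20 of 32 low-Glycam1 cells, and Sox7 in 4 and 18. Aplnr and Sox7 passed through the low-Glycam1 cells alone, so their direction follows in part from the filter. The guidance and VEGF co-receptor Nrp1 (-1.61) was the 1 lower of 10 angiogenic receptor genes that passed, and Dll4 (-1.40) the 1 lower of 5 arterial genes. Dll4 passed through the low-Glycam1 cells alone, so its direction follows in part from the filter. None of the 3 arterial genes that passed in both sets was lower.

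The gene with the largest negative difference was Lmna, which encodes A-type lamins of the nuclear envelope. It was at 0, 0.41 and 420 FPKM in high-Glycam1 cells, against 0, 76.2 and 683 FPKM in low-Glycam1 cells, a difference of -3.49, and it reached an FPKM of 1 in 12 of 32 high-Glycam1 cells and 28 of 32 low-Glycam1 cells. S100a6 (-2.61), a calcium-binding protein, Car2 (-2.62), a carbonic anhydrase, and Slc9a3r2 (-2.60), a PDZ scaffold that BEC held at a median of 218 FPKM, differed by similar amounts. Ppap2b (-2.43), the phosphatase that removes lysophosphatidic acid made by autotaxin, was at a median of 11.6 FPKM against 108 FPKM in low-Glycam1 cells, while Enpp2 itself was at the values given above. Mrpl44 (-2.64), a mitochondrial ribosome protein, Cmpk1 (-2.53), a nucleotide kinase, Ppic (-2.48), a cyclophilin, and Cdk4 (-2.37), a kinase of the G1 phase, completed the 12. Lmna, Car2, Slc9a3r2, Mrpl44, Cmpk1 and Cdk4 reached an FPKM of 1 in at least 50% of the low-Glycam1 cells alone. That share was required for naming, so their direction follows in part from it, as does that of Sparcl1 and Aplnr. By rank, Spata13 (rho -0.50) and Cbx3 (-0.46), a heterochromatin protein with a difference of -0.81, were also among the 10 lowest.

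**Figure D4:**
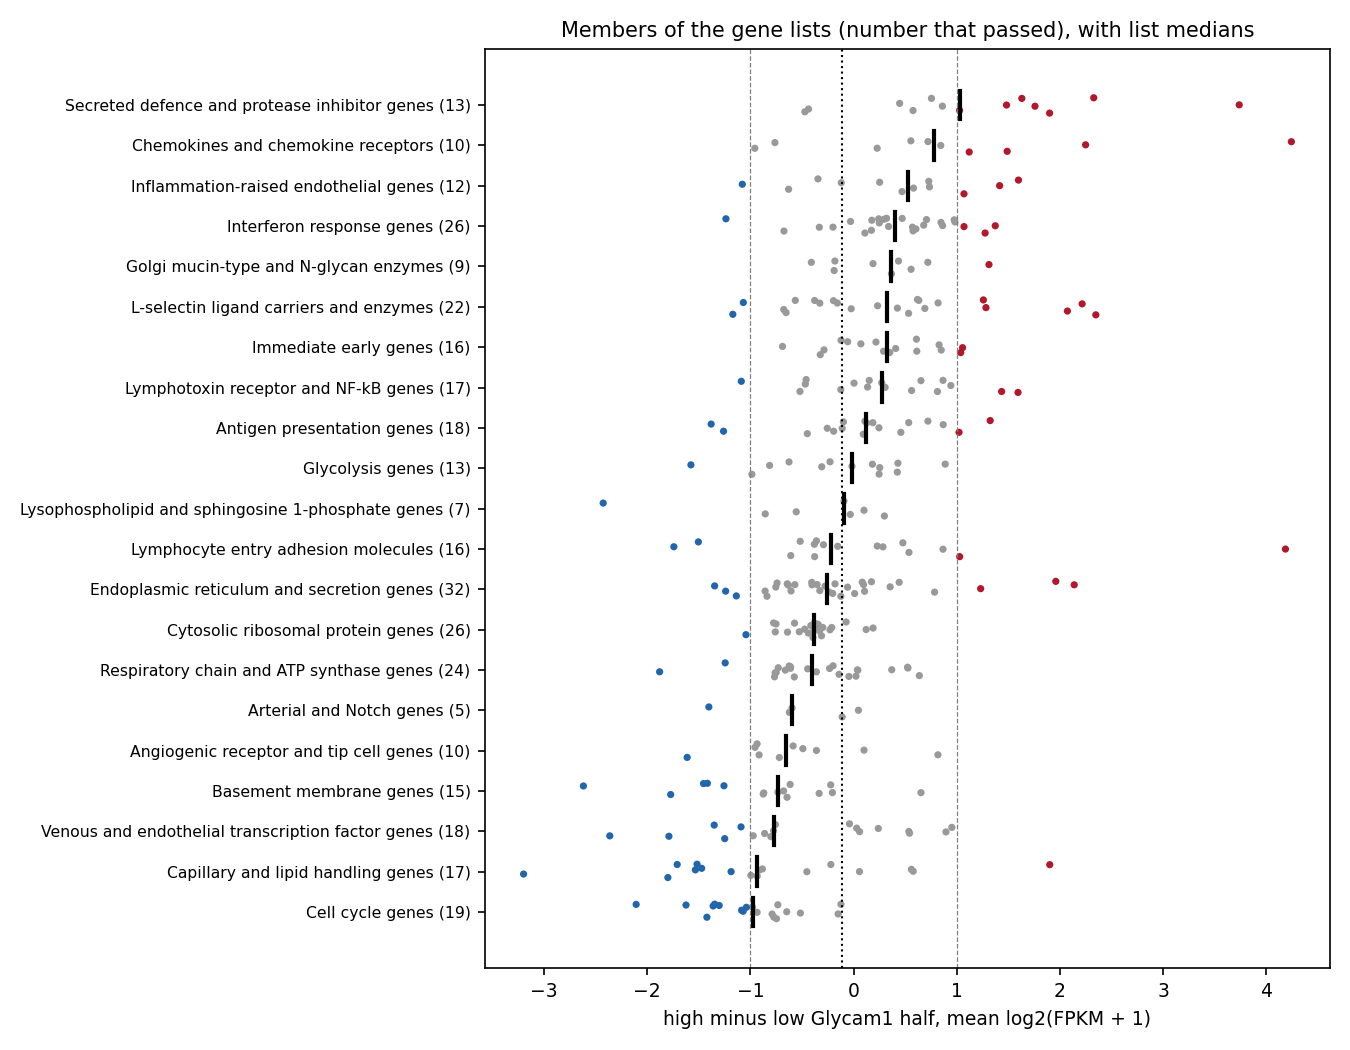
Differences of each gene (points: red 1 or more, blue -1 or less, grey between) that passed the filter, by list with the number passed in parentheses, on the horizontal axis as high-Glycam1 minus low-Glycam1 mean log2(FPKM + 1); black bars are list medians and the dotted line is the median of all genes, -0.11. Secreted defence genes have the highest median, 1.03, and cell cycle genes the lowest, -0.98.

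Metabolic and secretory machinery differed little. Of 32 endoplasmic reticulum and secretion genes, all passed, with 3 higher (Sec11c, a signal peptidase subunit, 2.14, the stress-induced chaperone Dnajb9, 1.96, and the stress transcription factor Atf4, 1.23) and 3 lower (Dnajb11, -1.35, Ssr2, -1.24, and Pdia3, -1.14), and a median of -0.26. Of 26 cytosolic ribosomal protein genes, Rpl3 (-1.04) was the 1 counted, but 24 lay below 0 and the median was -0.39. Respiratory chain and ATP synthase genes had 2 lower of 24, Sdhb (-1.88) and Cox5a (-1.24), and a median of -0.40. Among 13 glycolysis genes that passed, Ldha (-1.58) was lower. The mannosidase gene Man1a (1.31) was the 1 higher of 9 other Golgi enzymes, and Ier3 (1.04) and Dnajb1 (1.06) were the 2 higher of 16 immediate early genes. Of 7 lysophospholipid genes that passed, Ppap2b was the 1 lower.

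The same split was made in cells the rule did not use. Of 6356 genes, homeostatic HEC gave 263 higher (4.14%) and 381 lower (5.99%), 10.1% in all. Of 4958 genes, dedifferentiated HEC gave 560 higher (11.3%) and 478 lower (9.64%), 20.9% in all. Of the 12 genes with the largest positive difference in inflamed HEC, 11 had the same sign in homeostatic HEC and 9 reached 1 there, and in dedifferentiated HEC 11 reached 1. Of the 12 with the largest negative difference, 11 had the same sign in homeostatic HEC with 9 past 1, and 10 in dedifferentiated HEC with 6 past 1. For Mustn1 it was 3.87 in inflamed HEC, against 1.11 in the dedifferentiated and -0.43 in the homeostatic cells. The difference of Cpq was 3.03 in inflamed HEC, with -1.003 in the dedifferentiated and 2.50 in the homeostatic cells. Cmpk1 differed by -2.53 in inflamed HEC, but by 1.52 in dedifferentiated HEC and 1.44 in homeostatic HEC. Ccl21a differed by 4.24 in inflamed HEC, by 2.61 after LTBR-Ig and by 0.55 in untreated mice, where 34 of 39 high and 31 of 40 low cells held it at 10000 FPKM or more. For Ly6c1 the values were -3.20 in the inflamed, -2.88 in the dedifferentiated and -4.99 in the homeostatic cells. No test of a difference between conditions was possible, since each condition counts as 1 sample.

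**Figure D5:**
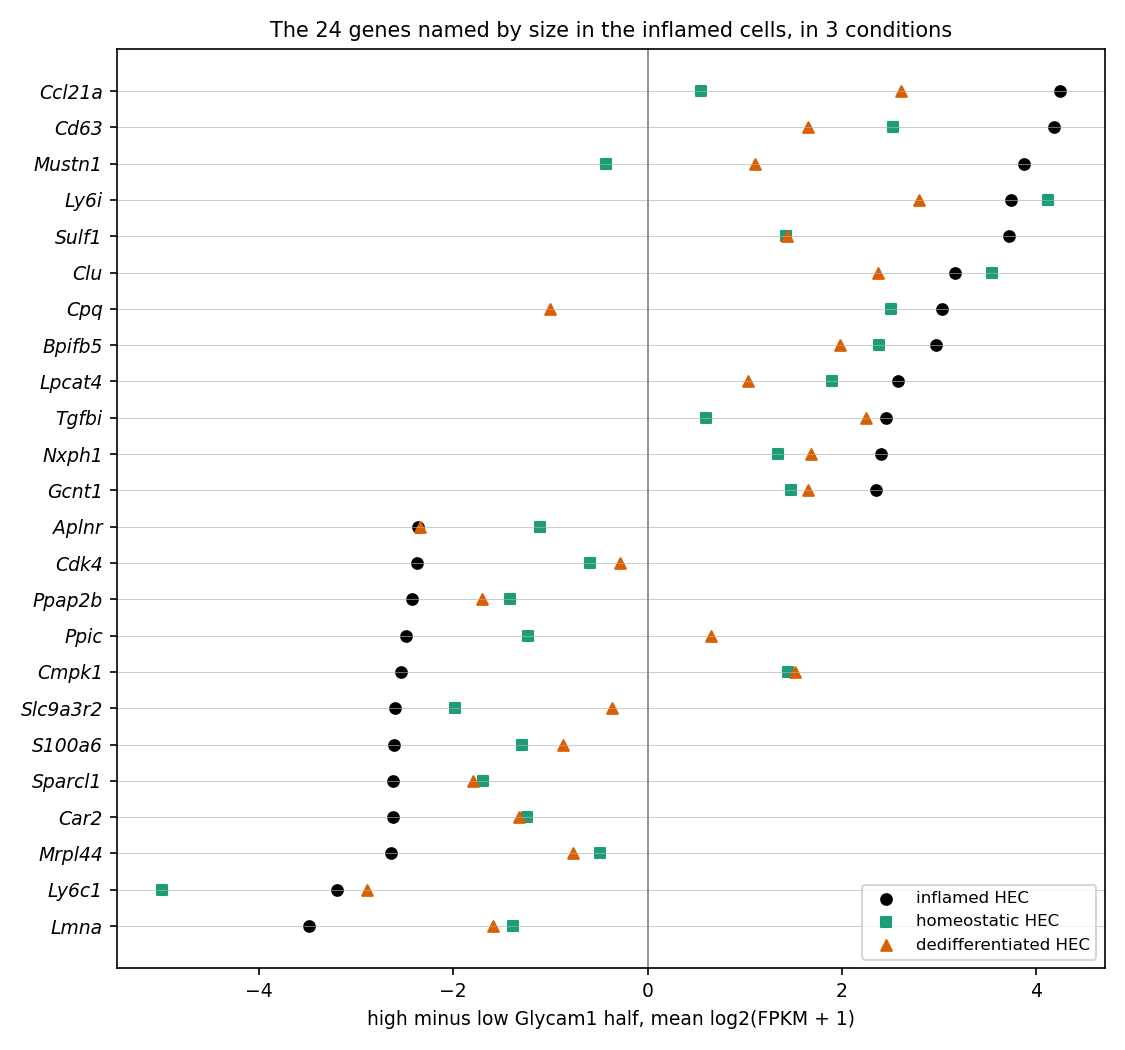
High-Glycam1 minus low-Glycam1 mean log2(FPKM + 1) (horizontal) of the 24 genes named by size in inflamed HEC (black circles), with the same split in homeostatic HEC (green squares) and dedifferentiated HEC (orange triangles). Most markers fall on the same side of 0, with Mustn1, Cpq, Cmpk1 and Ppic crossing it.

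Over the genes that passed in both conditions, 47 of the 297 counted as higher in inflamed HEC were also higher in homeostatic HEC. That was 15.8% of the inflamed list, beside 4.04% of all genes, and 19.7% of the homeostatic list, beside 5.04%. Lower in both were 73 of 460, 15.9% of the inflamed list (beside 6.26%) and 19.8% of the homeostatic list (beside 7.81%). In dedifferentiated HEC, 79 of 271 were also higher, 29.2% of the inflamed list (beside 11.4%) and 14.6% of the dedifferentiated list (beside 5.69%). There, 87 of 406 were lower in both, 21.4% (beside 9.54%) and 19.2% (beside 8.53%) in the same order. Of the genes higher in inflamed HEC, 13 of 297 were lower in homeostatic HEC (4.38%, beside 6.26% of all genes), and 12 of the 460 lower ones were higher there (2.61%, beside 4.04%). In dedifferentiated HEC, 15 of 271 were lower (5.54%, beside 9.54%) and 46 of 406 higher (11.3%, beside 11.4%). These splits share no cells, though all depend on Glycam1.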

How the data were processed

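Single endothelial cells were captured and their cDNA made on a Fluidigm C1, with Nextera XT libraries, per the labels' protocols. The authors deposited 1 table of FPKM values for 24049 gene symbols in 220 cells; CASAVA 1.8, RSEM 1.2.18 and mm10 are named in the submitters' processing notes, and the annotation is not given in the sources used here. Depth was estimated from the steps between low FPKM values of genes with 1 transcript in GENCODE M21, since no counts are given. On simulated data the estimate was within 0.9985 to 1.0016 of the truth. Its accuracy on the deposited FPKM table, whose annotation is not given, was not tested.

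Glycam1 was left out of the results. Means of log2(FPKM + 1) were subtracted, with no test, since each condition counts as 1 sample. Python 3.11.15, numpy 2.4.6, pandas 2.3.3 and scipy 1.17.1 were used. The difference script was tested on simulated data. Named genes were the 12 with the largest difference in each direction, and the 10 with the highest and lowest rho, among genes that reached an FPKM of 1 in at least 50% of the high-Glycam1 or of the low-Glycam1 cells, leaving out predicted, ribosomal, haemoglobin, immunoglobulin and small RNA genes. The cells, the 21 gene lists and the 11 marker lists were chosen with earlier results of these data known, and 5 list symbols had no match. Gene positions are from GENCODE M21, upstream sequences from RefSeq (GRCm38.p6). Sequences were shown for genes with an entry in that table. Alternatives were other pseudocounts, filters, scalings and subsets of cells.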

Additional observations from a re-analysis of the deposited data

How the results depend on the processing

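The 33 genes named by rule kept their sign under all 16 alternatives. Of these, 5 were chosen after seeing the data, and 2 changed only the filter, which cannot alter a gene's difference. Of 100 named genes and list members past a difference of 1, 99 kept their sign in all and 36 stayed past 1 in all. The exception in sign was Tnfrsf1b, at 0.041 as a ratio of arithmetic means; the cause was not tested. Counts of genes depended on how low values were weighed. In inflamed HEC, 326 higher and 548 lower became 764 and 1199 with a pseudocount of 0.1, 79 and 84 with a pseudocount of 10, 830 and 1222 as ratios of arithmetic means, and 563 and 914 between the outer groups of 21 cells. In homeostatic HEC, 263 and 381 became 668 and 915, 48 and 63, 573 and 1010, and 501 and 707 under the same 4, with 728 lower without cells holding lymphocyte, leukocyte or myeloid markers. In dedifferentiated HEC, 560 and 478 became 941 and 823, 157 and 129, 924 and 1091, and 873 and 823, with 302 lower under a filter at 50% of cells. The remaining alternatives gave 247 to 464 higher and 396 to 693 lower genes in inflamed HEC; without immune-marker cells they were 355 and 686. Tgfbi differed by 0.562 as a ratio of arithmetic means. No cell had under 50% of the median gene number, so that alternative changed nothing. No paired analysis was possible because the cell numbers in the labels name single cells and join no cells across conditions. With 32 cells a set and 1 cell a library, zeros mix absence and missed transcripts.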

Other observations

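Lyve1, a hyaluronan receptor used as a lymphatic marker, differed by 1.88 between high-Glycam1 and low-Glycam1 inflamed HEC. It reached an FPKM of 1 in 13 of 32 high-Glycam1 cells and 7 of 32 low-Glycam1 cells. It was the 1 of 8 lymphatic markers that passed the filter, and Prox1, the transcription factor that defines lymphatic endothelium, was at 0 in all 64 cells. Lyve1 passed through the high-Glycam1 cells alone, so its direction follows in part from the filter. Without the filter, 3 lymphatic markers lay above 0 and 3 below it. Of the T lymphocyte markers, Cd3d (-0.35) and Lck (0.92) passed, of the general leukocyte markers Coro1a (0.63) and Arhgdib (0.58), and of the platelet markers Pf4 (0.56), and none of these 5 was counted in either direction.

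Tetraspanin genes related to Cd63 were looked up after its value had been seen. Cd82 differed by 1.66, with medians of 140.7 FPKM in high-Glycam1 cells and 45.1 FPKM in low-Glycam1 cells. Cd81 differed by -0.89, with medians of 192 and 494 FPKM in the same order, so these surface proteins did not differ in 1 direction.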
